A study of Mus musculus with 36 samples.

Results

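The report concerns 5 genes of glutathione conjugation and detoxification, Gstm1, Gstp1, Gsto2, Gpx4 and Ugt1a6a, taken by gene symbol from the annotation of the authors' histone mark peak tables. They are 5 of the 9822 genes listed there, and they hold 8 of the 13958 listed peaks. All 8 were H3K9ac peaks (of 8115 listed), while none of the 5374 listed H3K9me3 peaks and none of the 469 listed H3K4me3 peaks was annotated to any of the 5 genes. The genes were chosen by their listed H3K9ac difference between knockout and wild-type cells, so the values below describe them and test nothing.

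Primary aortic smooth muscle cells came from C57BL/6N mice, called CSE WT, or from mice in which cystathionine gamma-lyase (CSE, gene Cth) is lost in the whole body, called CSE KO. Both genotypes received angiotensin II (Ang II, 1 uM) for 24 h, so no group lacked the hormone and every difference below is between genotypes under Ang II. ChIP-seq was done for H3K9ac, H3K9me3 and H3K4me3, in 36 libraries that form 12 groups of 3 (each mark, immunoprecipitate or input, each genotype). The labels do not say whether the 3 libraries of a group came from separate animals or cultures, and they give no age or sex of the mice. Cth, the targeted gene, has no listed peak of any mark, and a list of changed peaks does not check the genotype.

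CSE makes hydrogen sulfide and supplies cysteine from cystathionine, and cysteine is a building block of glutathione. Glutathione transferases join glutathione to electrophiles, glutathione peroxidases use it to reduce peroxides, and UDP-glucuronosyltransferases attach glucuronic acid to drugs and bilirubin-like compounds for export. H3K9ac and H3K4me3 are marks of active promoters, and H3K9me3 is a mark of silenced chromatin.

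H3K9ac was higher in knockout cells at 4 of the 5 genes (Gstm1, Gstp1, Gsto2 and Ugt1a6a, with 1 listed peak each) and lower at all 4 peaks annotated to Gpx4. In the authors' deposited table the differences of the 4 higher genes ran from 2.22-fold at Gsto2 to 6.82-fold at Ugt1a6a, each with an FDR below 0.05. The background ran the other way, since of all 8115 H3K9ac peaks in the authors' deposited table, only 22.8% were higher in knockout cells, 77.2% were lower and 16.6% had an FDR below 0.05. That contrast was also the one by which the genes were picked, so nothing is read from 4 of 5 against this background. The shares are of listed peaks alone, and no H3K9ac peak with a p under 0.0001 is listed. Each value is the authors' mean for a group that the labels give 3 libraries, without per-library values, so no SD and no overlap between libraries can be given, and the depth is unknown. In bulk chromatin, fewer cells that carry the mark and less of the mark per cell cannot be told apart.

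**Figure D1:**
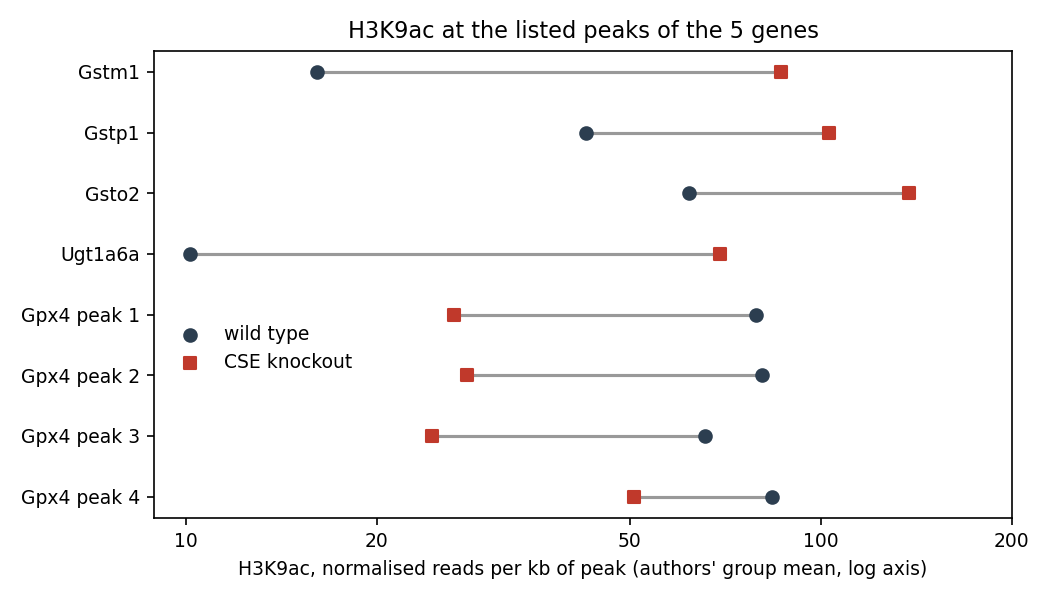
H3K9ac at the 8 listed peaks, as the authors' group mean of normalised reads per kb of peak (log axis), with circles for wild type and squares for CSE knockout joined by a line. The 4 higher genes reach 69.3 to 138 reads per kb in knockout cells, and the 4 peaks annotated to Gpx4 lie at 65.8 to 83.8 in wild type and 24.4 to 50.9 in knockout cells.

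The bases just upstream of Gstm1, Gstp1 and Ugt1a6a are printed because their H3K9ac peaks lie inside the gene beyond this start, so the peak and the promoter are different stretches of DNA. The same holds for the peak of Gsto2, whose upstream bases are not printed. Each run gives the 250 bases before the outermost RefSeq start (GRCm38.p6), 5' to 3' on the strand of the gene, with matches to the searched motifs in capitals.
Gstm1 (chr3:108017974-108018223, minus strand): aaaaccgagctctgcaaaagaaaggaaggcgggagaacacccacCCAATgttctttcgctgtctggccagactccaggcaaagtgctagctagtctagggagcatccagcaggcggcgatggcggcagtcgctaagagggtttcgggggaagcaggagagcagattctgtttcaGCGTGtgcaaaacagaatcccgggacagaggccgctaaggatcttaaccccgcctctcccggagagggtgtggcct
Gstp1 (chr19:4037913-4038162, minus strand): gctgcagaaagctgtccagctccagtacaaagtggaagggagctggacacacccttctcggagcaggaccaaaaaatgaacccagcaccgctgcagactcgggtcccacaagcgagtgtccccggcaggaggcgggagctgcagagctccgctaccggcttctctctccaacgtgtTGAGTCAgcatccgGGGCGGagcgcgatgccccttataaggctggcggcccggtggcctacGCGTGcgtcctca
Ugt1a6a (chr1:88134559-88134808, plus strand): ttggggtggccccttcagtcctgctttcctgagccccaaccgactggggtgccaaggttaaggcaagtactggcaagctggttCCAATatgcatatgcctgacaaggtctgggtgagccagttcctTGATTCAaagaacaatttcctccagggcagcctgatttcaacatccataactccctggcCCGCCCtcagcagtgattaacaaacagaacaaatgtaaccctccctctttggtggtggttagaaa

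In the Gstm1 run the capitals mark CCAAT, 206 bases before the start, and GCGTG, the core of the xenobiotic response element bound by the aryl hydrocarbon receptor, 76 bases before it. Gstm1 has another RefSeq start, nearer to its peak, whose window is not printed. That window held TATAAA 30 bases before the start, CCAAT on the other strand at 91 and 97, and GCGTG at 231. No other gene of the 5 held TATAAA. The Gstp1 run holds TGAGTCA, a match to the AP-1 letters TGANTCA, 74 bases before the start, the GC box GGGCGG at 60 and GCGTG at 13. The Ugt1a6a run holds CCAAT at 167, TGATTCA at 124 and the GC box on the other strand at 65. Motifs were searched on both strands in all RefSeq windows from 250 bases before to 50 after a start, and the matches in the printed runs do not overlap each other. Of 32851 such windows, 32.4% held GCGTG, 7.81% TGANTCA, 35.7% GGGCGG, 37.4% CCAAT and 13.6% TATAAA. The antioxidant response element core letters TGACNNNGC, a form of the NRF2 site of many glutathione genes, were in 12.4% of all windows and in 0 of the 10 windows of the 5 genes. No other form of an NRF2 site was searched, so none is excluded. In the Gstp1 run the letters TGAGTCA are followed by gc. They thus differ from TGACNNNGC only by a G in place of its C, a form that was not searched. A match is a description of letters, and its absence says only that these letters are not in these windows.

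Among the glutathione transferases, Gstm1 (ENSMUSG00000058135), a mu-class enzyme that conjugates electrophiles in the cytosol, had the largest fold. Its peak on chromosome 3, 108016051 to 108016561, had 8.22 normalised reads in wild-type and 44.3 in knockout cells in the authors' deposited table. Knockout cells were thus 5.39-fold higher (log2 fold change 2.43, p = 0.000192, FDR = 0.0102 in the authors' deposited table). Over all libraries, 32.0% of listed H3K9ac peaks had less signal than this peak. The peak lies 1257 bp downstream of the nearest RefSeq start of Gstm1, in the body of the gene, although the authors' table annotates it 39 bp from the start of a shorter transcript.

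Gstp1 (ENSMUSG00000060803), the pi-class enzyme of electrophile conjugation, had a peak at chromosome 19, 4036034 to 4036742. The authors' deposited table gives 30.3 normalised reads in wild-type and 73.0 in knockout cells. The difference was 2.41-fold (log2 fold change 1.27, p = 0.00152, FDR = 0.0422 in the authors' deposited table), and of the 1850 higher peaks 53.5% had a larger fold. This peak also starts inside the gene, 1170 bp downstream of the RefSeq start.

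Gsto2 (ENSMUSG00000025069), an omega-class enzyme that reduces dehydroascorbate, carried the most H3K9ac of the 4 higher genes. Its peak at chromosome 19, 47868693 to 47870642, is 1950 bp long and had 121 normalised reads in wild-type and 269 in knockout cells in the authors' deposited table. The fold was the smallest of the 4 at 2.22 (log2 fold change 1.15), but its p of 0.000135 ranked 10 among the 1850 listed higher H3K9ac peaks (FDR = 0.00778 in the authors' deposited table). No H3K9ac peak with a p under 0.0001 is listed, so stronger peaks may be missing from that rank. Per kb of peak the level went from 62.1 to 138 in the authors' deposited table, still the highest of the 4 in knockout cells, where Gstp1 had 103, Gstm1 86.7 and Ugt1a6a 69.3. The peak lies inside Gsto2, 2899 bp downstream of the nearest RefSeq start. Gsto1, the neighbouring omega-class gene, had no listed peak of any mark.

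Ugt1a6a (ENSMUSG00000054545) makes a glucuronosyltransferase of simple phenols and is a known target of the aryl hydrocarbon receptor. Its peak at chromosome 1, 88135609 to 88135919, is only 311 bp long and had 3.16 normalised reads in wild-type and 21.6 in knockout cells in the authors' deposited table. This was the largest fold of the 5 genes, 6.82 (log2 fold change 2.77, p = 0.00108, FDR = 0.0335 in the authors' deposited table). It was also the weakest signal, with 5.09% of listed H3K9ac peaks below it. The Ugt1a genes share their last exons and have separate first exons in a row, and this peak lies within the RefSeq span of 6 of them (Ugt1a10, Ugt1a9, Ugt1a8, Ugt1a7c, Ugt1a6b and Ugt1a6a). Its assignment to Ugt1a6a rests on its place 800 bp downstream of that gene's own start.

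Gpx4 (ENSMUSG00000075706) makes the selenium enzyme that reduces lipid peroxides in membranes and holds back ferroptosis. Going away from Gpx4 on chromosome 10, the authors' deposited table gives 34.1 reads in wild-type and 11.4 in knockout cells at 80057061 to 80057490, and 48.5 and 16.7 at 80059504 to 80060104. The next peak, 80060273 to 80061428, had 76.1 and 28.2, and the widest, 80062597 to 80065870, had 274 and 167 in the authors' deposited table. Knockout cells were lower at each, by 2.99, 2.89, 2.69 and 1.65-fold in that order, for which the authors' deposited table has FDR values of 0.21, 0.0747, 0.113 and 0.16, so none of the 4 was below 0.05. The fold was smallest at the peak farthest from Gpx4.

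The position of these 4 peaks goes against their label. RefSeq places Gpx4 at 80047166 to 80056439 on the plus strand, and the peaks begin 622, 3065, 3834 and 6158 bp beyond its end, all inside Sbno2, a gene of a transcriptional co-regulator. They were annotated to Gpx4 through a transcript of 366 bp at the end of the gene, and for the last 3 the authors' annotation also names exons 27, 21 and 16 of 33 of Sbno2. The peak annotated to Sbno2 itself, at 80066079 to 80067971, had 164 reads in wild-type and 73.0 in knockout cells, and the authors' deposited table gives a 2.25-fold lower signal there (FDR = 0.0166). No listed peak of any mark overlapped the RefSeq model of Gpx4, so these values describe chromatin of Sbno2 downstream of Gpx4 and give none for the Gpx4 promoter.

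**Figure D2:**
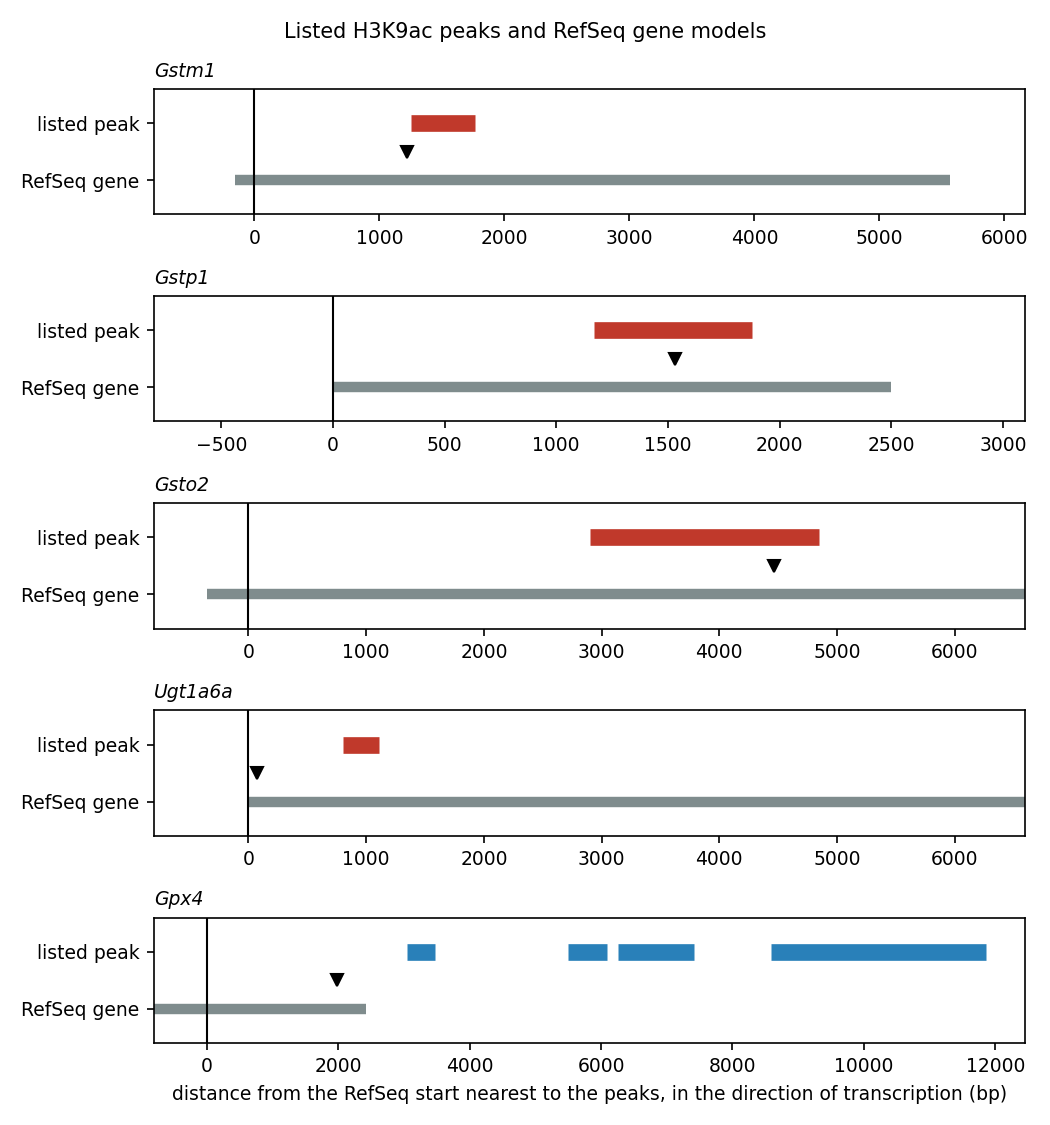
Listed H3K9ac peaks (red higher, blue lower in knockout cells) above the RefSeq model of each gene (grey), by distance in bp from the RefSeq start nearest to the peaks; the black triangle is the start used by the authors' annotation. The peaks of the 4 higher genes lie 800 to 2899 bp downstream of the start and inside the gene, and the 4 peaks annotated to Gpx4 lie beyond its end.

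None of the 8 peaks overlapped a RefSeq promoter window of its own gene, over the 10 RefSeq starts of the 5 genes, and 4 of 8 lay inside their own gene. Over the whole table, of 1565 H3K9ac peaks that the authors annotate within 1 kb of a start and whose gene matched RefSeq, 46.6% lay over 1 kb from any RefSeq start of that gene. For H3K4me3 the share was 7.69% of 286 peaks. Distances of this size were common for H3K9ac.

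**Figure D3:**
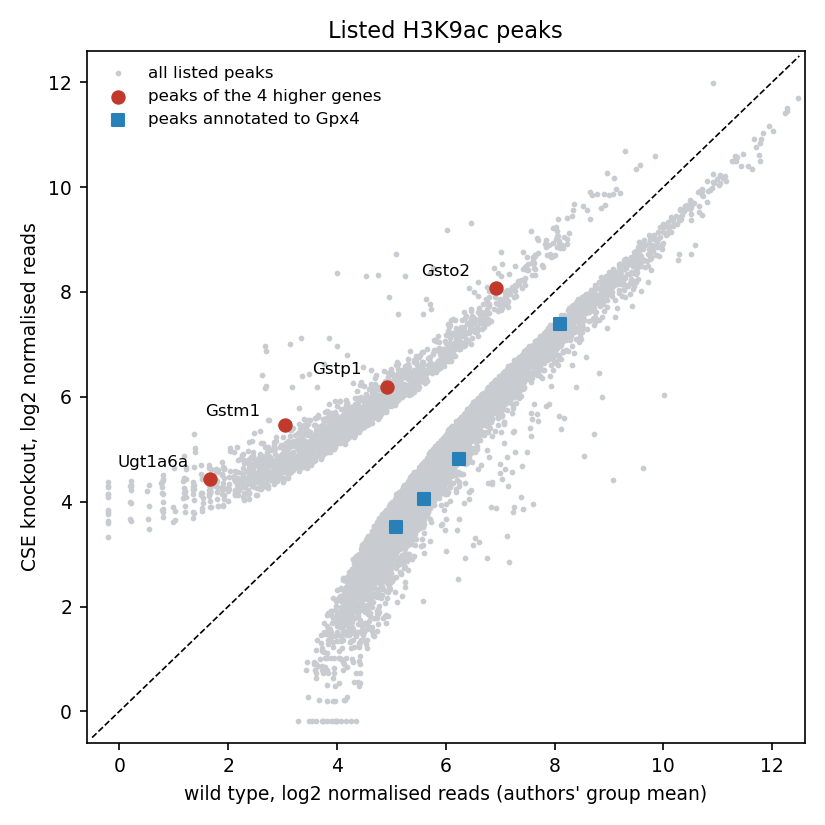
Knockout against wild-type log2 normalised reads (authors' group means) for all 8115 listed H3K9ac peaks in grey, with the 4 higher genes as red circles and the 4 peaks annotated to Gpx4 as blue squares; the dashed line marks equal values. Most peaks (77.2%) lie below the line, Ugt1a6a has 5.09% of listed peaks below it in signal and Gsto2 has 90.3%.

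By a rule that ranks other genes by the distance between their promoter peaks in the 2 log2 group values, the genes most like each member were Gcnt2 (0.156) and Pcdh19 (0.166) for Gstm1, and Zfp454 (0.0224) and Epc1 (0.07) for Gstp1, in the authors' deposited table. For Gsto2 they were Trim25 (0.0447) and Zbtb7c (0.0781), for Ugt1a6a Morc1 (0.0671) and Cpd (0.102), and for Gpx4 Gm49378 (0.01) and Taf6l (0.02), in the authors' deposited table. The peak used for Gpx4 is annotated as its promoter but lies inside Sbno2. With 2 group values a gene, this likeness is a description of level and fold only.

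The listed peaks around the 5 genes were counted next, without a test of the differences between places. Within 100 kb, all 4 other listed H3K9ac peaks around Ugt1a6a were higher in knockout cells and all 5 around Gpx4 were lower. Nearest to Ugt1a6a, the authors' deposited table has Gm15370 at 5.16 kb, 2.27-fold higher (FDR = 0.199), then 3 peaks of the cold-sensing channel gene Trpm8, 1.78 to 2.14-fold higher (FDR = 0.0911 to 0.206). Around Gpx4 the peaks belonged to Sbno2, the lipid transporter gene Abca7, Cbarp and Wdr18. All 3 around Gsto2 were lower while Gsto2 was higher. In the authors' deposited table these were Itprip at 23.1 kb (1.85-fold, FDR = 0.237), Cfap43 at 43.6 kb (2.23-fold, FDR = 0.0533) and Cfap58 at 51.0 kb (1.85-fold, FDR = 0.0588).

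Around Gstp1, 4 peaks were higher and 2 lower. The nearest peak on the side away from Ndufv1 was Gm23927 at 35.1 kb, 2.93-fold higher (FDR = 0.199), in the authors' deposited table. Aldh3b2, an aldehyde dehydrogenase gene that falls outside the naming rule, lay 64.7 kb away. It was 4.08-fold higher (FDR = 0.191), from 4.59 reads in wild type, in the authors' deposited table. In the same source 2 peaks of the complex I gene Ndufv1 were 2.20 and 1.96-fold lower at 26.4 and 27.0 kb (FDR = 0.267 and 0.0659). The mu-class cluster held both directions. In the authors' deposited table an intron peak of Gstm3 was 3.20-fold higher in knockout cells than the 5.98 reads of wild type (FDR = 0.323), and a promoter peak of Gstm2 was 1.69-fold lower, at 152 against 258 reads (FDR = 0.258). Of the chromosomes concerned, the share of listed H3K9ac peaks that were higher was 34.4% on chromosome 19 (Gstp1 and Gsto2), 13.6% on 1, 12.8% on 3 and 10.6% on 10.

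**Figure D4:**
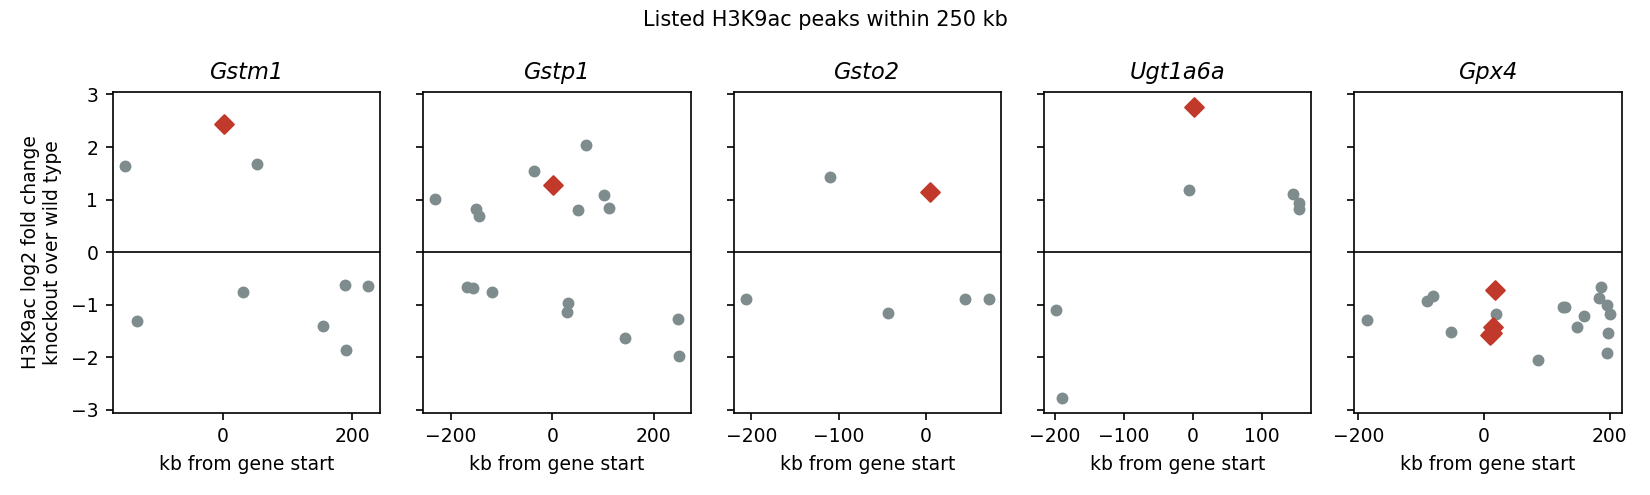
Log2 fold change (knockout over wild type) of listed H3K9ac peaks within 250 kb of each gene, by distance in kb from its start; red diamonds are the peaks of the named gene and grey points those of other genes. Within 250 kb, 16 of 16 other peaks around Gpx4 were lower, against 8 of 16 around Gstp1.

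For the other 2 marks, the nearest listed peaks were far from most of the genes. The closest H3K9me3 peaks lay 69.4 kb from Gpx4 (Tmem259), 105 kb from Ugt1a6a and 168 kb from Gsto2, 858 kb from Gstp1 and 1360 kb from Gstm1. The closest H3K4me3 peak lay 59.4 kb from Gpx4, at the kinase gene Stk11. By the authors' deposited table the Tmem259 peak was 7.94-fold higher in knockout cells, where its FDR is 1, and 0 of 5374 listed H3K9me3 peaks had an FDR below 0.05 (all 5374 have a p under 0.05 before adjustment).

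The 5 genes were set beside 243 other genes of detoxification in 8 lists. Of the 248 genes, 39 had a listed H3K9ac promoter peak. By the one of smallest p per gene, 19 (48.7%) were higher in knockout cells and 20 were lower. By the authors' deposited table their median log2 fold change was -0.71, and the lower ones include Gpx4 by its peak inside Sbno2. Without the 5 genes, 34 were listed, 15 higher (44.1%) and 19 lower, with a median of -0.74 and 8 with an FDR below 0.05. Over all 3051 genes with a listed promoter peak, 21.9% were higher, 78.1% were lower, the median was -0.98 and 18.8% had an FDR below 0.05, in the authors' deposited table. The lists were chosen with earlier results of these data known, so nothing is read from these shares. A gene without a listed H3K9ac peak (190 of 248 had none) may be unchanged or unmarked for H3K9ac, and no H3K9ac peak with a p under 0.0001 is listed in the table analysed here, so its state is unknown. Nqo1, Hmox1, Gclc, Gclm and Cyp1a1 were among them.

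**Figure D5:**
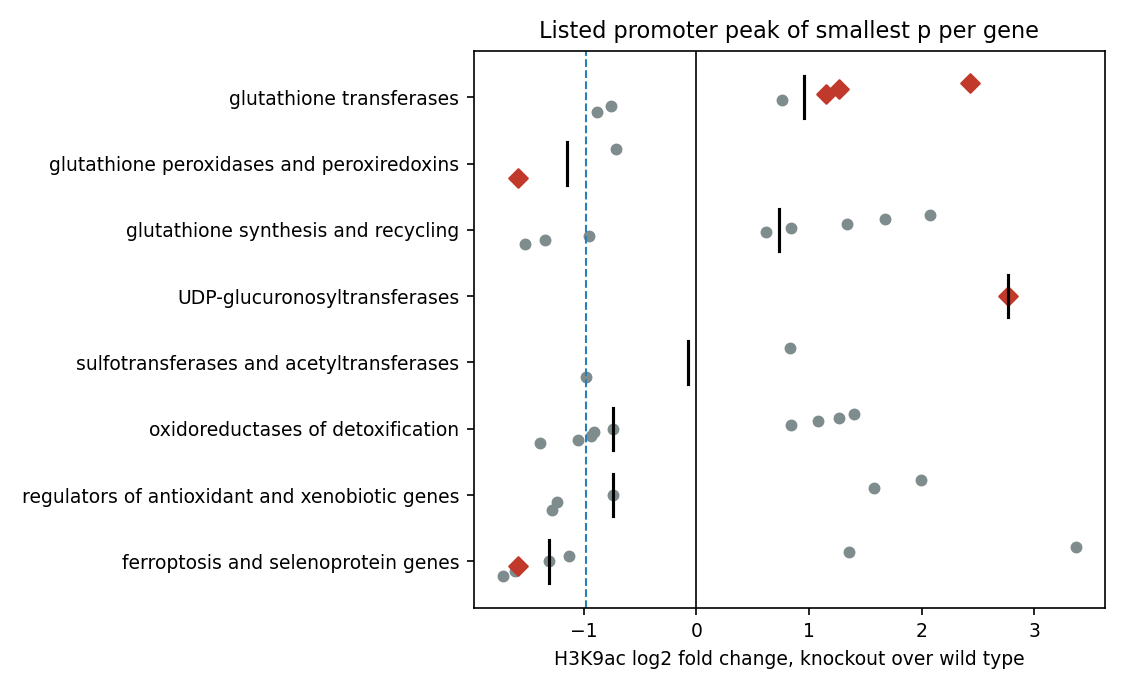
H3K9ac log2 fold change (knockout over wild type) of the listed promoter peak of smallest p for each gene of the 8 lists; red diamonds are the 5 genes, grey points the other genes, black bars the list medians, and the dashed blue line the median of all listed genes (-0.98). The glutathione transferases have 4 of 6 points above 0, and the peroxidases 0 of 2. The Gpx4 points stand for the peak annotated as its promoter, which lies inside Sbno2.

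Of 29 glutathione transferase genes, 6 had a listed promoter peak, 4 higher (66.7%) and 2 lower. Of the 4, 3 were Gstm1, Gstp1 and Gsto2, without which 1 was higher and 2 were lower. The theta-class gene Gstt2 was, by the authors' deposited table, 1.84-fold lower (FDR = 0.0504). The remaining higher gene was Gsta4, a detoxifier of lipid aldehydes (1.69-fold, FDR = 0.23), and an intron peak of Gstz1 was 3.86-fold higher (FDR = 0.289), in the authors' deposited table. These 2 genes fall outside the naming rule and were named after their values were seen.

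Of 14 peroxidase and peroxiredoxin genes, 4 had a listed peak and all 4 were lower. Gpx4 was counted by its peaks inside Sbno2. The others were Gpx5 (an intergenic peak, 2.75-fold, FDR = 0.014), Gpx7 (a promoter peak, 1.64-fold, FDR = 0.161) and Gpx6 (an intergenic peak, 2.68-fold, FDR = 0.204), in the authors' deposited table. With 77.2% of listed peaks lower, 4 of 4 is close to what the table shows in general.

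Among 37 genes of glutathione synthesis, recycling and export, 8 had a listed promoter peak, 5 higher (62.5%) and 3 lower. When peaks of every annotation were taken, 9 genes were listed, 4 higher (44.4%) and 5 lower. In the authors' deposited table Idh1, a source of NADPH in the cytosol, went from 10.1 reads in wild-type to 42.2 in knockout cells (4.20-fold, FDR = 0.0176). The exporter gene Abcc5 had peaks 2.53 and 6.11-fold higher (FDR = 0.0286 and 0.0395), and the authors' deposited table has Ggt1, which splits glutathione outside the cell, 2.87-fold lower (FDR = 0.012). Slc7a11, the cystine importer, had both directions, an exon peak 3.27-fold lower (FDR = 0.0553) and a promoter peak 1.79-fold higher (FDR = 0.29), in the authors' deposited table.

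Ugt1a6a was the only one of 24 glucuronidation genes with a listed H3K9ac promoter peak, and the authors' deposited table has an intergenic peak of Ugp2, which makes UDP-glucose, 3.07-fold lower (FDR = 0.0509). Of 21 sulfotransferase and acetyltransferase genes, the authors' deposited table has Nat2 1.97-fold lower (FDR = 0.0271), Nat1 2.07-fold lower (FDR = 0.136) and Sult2b1 1.78-fold higher (FDR = 0.223).

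Of 60 oxidoreductase genes, 9 had a listed promoter peak, 4 higher (44.4%) and 5 lower. The aldehyde dehydrogenase gene Aldh3a1 went from 630 reads in wild-type to 1652 in knockout cells (2.64-fold, FDR = 0.0392) in the authors' deposited table. For Aldh1a1, a retinaldehyde dehydrogenase, the authors' deposited table has peaks 2.41-fold higher (FDR = 0.012), 9.65-fold higher (FDR = 0.0394) and 1.61-fold lower (FDR = 0.253). For Ephx1, the microsomal epoxide hydrolase, the authors' deposited table has an intron and an exon peak 3.78 and 2.60-fold lower (FDR = 0.0383 and 0.0431) beside a peak 3.63-fold higher. For Fmo1 the authors' deposited table gives a 5.06-fold lower signal (FDR = 0.0522) at a peak annotated as downstream, not as promoter.

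Of 21 regulator genes, 5 had a listed promoter peak, 2 higher (40%) and 3 lower. When peaks of every annotation were taken, 8 were listed, 3 higher and 5 lower. In the authors' deposited table a promoter peak of Nfe2l3, a relative of NRF2, was 2.43-fold lower (FDR = 0.0468). A promoter peak of the small MAF partner Maff was 3.97-fold higher (FDR = 0.0913) in the authors' deposited table. Rxra had an intergenic peak 2.87-fold lower (FDR = 0.0714) and no listed promoter peak. For Hif1a the authors' deposited table has an intron peak 2.64-fold higher (FDR = 0.119) and a promoter peak 2.99-fold higher (FDR = 0.165). Of 43 ferroptosis and selenoprotein genes, 7 had a listed promoter peak, 2 higher (28.6%) and 5 lower, counting Gpx4 by its peak inside Sbno2. The mitochondrial channel gene Vdac2 had a peak 10.3-fold higher (FDR = 0.0315), from 1.73 reads in wild type, in the authors' deposited table. It also had a peak 1.57-fold lower, and an intergenic peak of Alox12b was 2.73-fold higher (FDR = 0.0522), in the authors' deposited table. For Ireb2, counted among the lower genes, the authors' deposited table has a promoter peak 3.29-fold lower (FDR = 0.293) and an intergenic peak 2.71-fold higher (FDR = 0.122).

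In H3K9me3, 10 genes of the lists had a listed peak, 5 higher and 5 lower (60.4% of all 3951 genes listed for this mark were higher), and the authors' deposited table gives all 10 an FDR of 1. Higher were G6pd2 (7.21-fold), Ugt2a1 (7.41-fold), Sult4a1 (10.9-fold), Aldh1a2 (10.7-fold) and Selenon (7.21-fold), in the authors' deposited table. The lower ones included Glo1 (10.1-fold), Msra (7.41-fold), Cul3 (14.4-fold) and Nr1i2 (14.6-fold), in the authors' deposited table. Reads were few, 0.732 to 5.35 in wild type for the higher genes and 0.747 to 1.37 in knockout cells for the lower ones named. Over all listed H3K9me3 peaks, the median fold was 9.25 for higher and 8.28 for lower peaks, in the authors' deposited table. The H3K4me3 table gives positions without a direction and lists 5 of these genes, Aldh3a2, Cbr3, Msrb3 and Cyp4f17 at promoters and Hif1a in an intron.

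The labelled cell type was looked at through marker lists in the H3K9ac table, which lists selected peaks and so cannot show which markers were expressed. Of 10 smooth muscle markers 7 were listed, 1 higher (14.3%) and 6 lower, where 24.2% of all 5911 listed genes were higher. The smooth muscle reads summed over listed peaks were 781 in wild-type and 554 in knockout cells in the authors' deposited table. Of 8 leukocyte markers 2 were listed, both higher, and their sum went from 769.8 to 1379.9 in the authors' deposited table. Most of that sum was 1 promoter peak of Cd14, with 724 reads in wild-type and 1296 in knockout cells in the authors' deposited table. The FDR values of the leukocyte peaks ran from 0.231 to 0.322. Ptprc, Cd68, Adgre1, Csf1r, Itgam and Cd3e had no listed H3K9ac peak. The endothelial list had 2 of 8 markers (399 and 411), the fibroblast list 2 of 6 (125 and 112) and the adipocyte list 2 of 5 (265 and 133), wild type first, in the authors' deposited table. The part of these markers in the values of the 5 genes was not tested.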

How the data were processed

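ChIP-seq of 3 histone marks was deposited as 3 tables of selected peaks, 1 per mark, with a p limit of 0.05. Per the submitters' processing notes, CASAVA 1.4 and the build mm9 were used, while for the aligner, peak caller, differential test and normalisation nothing is given in the sources used here. The authors' deposited log2 group means were turned into normalised reads and fold changes here, and the deposited p-value and FDR were used as given. They weigh the difference between genotypes against the spread between the authors' libraries, which may be technical. Of 286 matched H3K4me3 peaks annotated within 1 kb of a start, 92.3% lay within 1 kb of a RefSeq GRCm38.p6 start of that gene, so coordinates were taken as GRCm38. The tables' width is 1 base more than start to end, so an end may be off by 1 base. With group means alone, no test of samples was run and the authors' calls were counted. The genes and lists were chosen with earlier results of these data known. Named were the 5 genes, up to 4 list genes of smallest p in H3K9ac and 2 in H3K9me3, list genes with an H3K4me3 peak, cluster paralogs, the 2 most alike genes and nearest peaks. Promoter sequences are from RefSeq (GRCm38.p6), with all 5 genes matched. Scripts used Python 3.11.15, numpy 2.4.6, pandas 2.3.3 and matplotlib 3.10.9, and were tested on simulated data. Alternatives tried were stricter p, FDR, fold and signal limits, other promoter definitions and other windows.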

Additional observations from a re-analysis of the deposited data

How the results depend on the processing

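Over 10 counts and 44 alternatives, 22 stayed within 1.5 times the count reported and 22 did not. Of the 5 genes' peaks (4 higher, 4 lower), a p under 0.01 left 2 lower, an FDR under 0.05 left 0 lower, the RefSeq span of the gene left 0 lower, and a place within 1 kb of a RefSeq start left 1 higher and 0 lower. Of the list genes (19 higher, 20 lower), a p under 0.01 left 10 higher and 7 lower, an FDR under 0.05 left 9 and 3, a place within 1 kb of a RefSeq start left 5 and 4, a 2-fold minimum left 11 lower, the authors' start within 1 kb left 12 lower, and peaks of every annotation gave 33 lower. Of list genes in H3K9me3 (5 higher, 5 lower), a p under 0.01 left 0 higher and 2 lower, and promoter peaks alone 3 and 0. Neighbouring peaks within 100 kb (9 higher, 11 lower) were 4 and 6 within 50 kb, and 15 and 36 within 250 kb. The cause was not tested, beyond the smaller or larger number of peaks that each setting admits. The alternatives by RefSeq position and the one without the 5 genes were chosen after seeing the data. No paired analysis was possible because the tables hold no values per library, and leaving out a replicate was not run for the same reason. A comparison of protein sequences was not run because none was used here.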

Other observations

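Some further values were picked after they were seen. Cyp1b1, a cytochrome P450 gene that like Ugt1a6a and Aldh3a1 is a textbook target of the aryl hydrocarbon receptor, had 1924 normalised H3K9ac reads in wild-type and 4068 in knockout cells (2.11-fold higher, FDR = 0.151) in the authors' deposited table, while Cyp1a1, Ahrr, Tiparp and Nqo1 had no listed H3K9ac peak. Of the NRF2 pathway, an intron peak of Nfe2l2 was 1.62-fold higher (FDR = 0.195) and an exon peak of Keap1, its inhibitor, was 7.21-fold lower (13.3 reads in wild-type and 1.83 in knockout cells, FDR = 0.177), in the authors' deposited table.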
